A study of Homo sapiens with 2 samples.

Results

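Prostaglandin genes of enzalutamide-resistant prostate cancer cells were examined: 10 of the 25268 gene symbols listed, taken by name because they encode the cyclooxygenases, the targets of indomethacin, and proteins that act around them. PTGS1 and PTGS2 are the cyclooxygenases. PTGES and PTGES2 are prostaglandin E synthases, and CBR1 is a carbonyl reductase that can convert prostaglandin E2 to prostaglandin F2alpha. PTGER4 is the prostaglandin E2 receptor EP4, and SLCO2A1 is the transporter that carries prostaglandins into cells. HPGD, PTGR1 and PTGR2 take part in inactivation. All 10 symbols were present in both tables, and 5 of them (PTGES, PTGES2, PTGR1, PTGR2 and CBR1) reached a mean of 1 FPKM over the 2 libraries, the minimum for a gene to be counted. Genes that passed this minimum are called tested or measured below, although no statistical test was possible. FPKM are fragments scaled by transcript length and library size, so levels can be compared between genes.

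The cells were C4-2B MDVR, a castration-resistant prostate cancer line derived from LNCaP cells, made resistant to the antiandrogen enzalutamide and maintained in medium with 20 µM enzalutamide in both groups. The DMSO group was 1 culture given the vehicle for 3 days, and the Indocin group was 1 culture given 20 µM Indocin, which is indomethacin, for 3 days. With a single library in each group, the differences described here could not be checked against replicates, and no test or error between cultures exists. The single line also means that nothing here speaks of other prostate cancer cells.

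Cyclooxygenases turn arachidonate, freed from membrane phospholipids, into prostaglandin H2, which separate synthases convert to the individual prostanoids. Indomethacin blocks that first step in both isoforms. PTGS1 is made constitutively in many tissues, whereas PTGS2 is typically induced by cytokines, growth factors and stress. Prostaglandin E2 acts mainly through EP receptors, of which EP2 and EP4 raise cyclic AMP, and it is cleared by uptake and by oxidation in HPGD followed by reduction in PTGR1 or PTGR2.

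On the scale of the deposited FPKM, the libraries were of similar depth. Whether a scaling between the libraries shaped this was not tested. The FPKM of all symbols summed to 617510 with DMSO and 583096 with Indocin. In 1332 genes whose mean was below 0.05 FPKM, the steps of the values put the worth of 1 fragment at 1.014 times with Indocin what it was with DMSO. From genes with a single annotated transcript, 1 fragment in a transcript of 1 kb was worth about 0.0308 FPKM with DMSO, which corresponds to about 32500000 fragments. Fragment numbers given below were estimated from this value and the longest coding transcript in a GRCh38 annotation, and are approximate. The 7 prostate luminal epithelium markers used here were all measured, with KLK3 at 71.7 FPKM with DMSO and 58.1 FPKM with Indocin. Their summed FPKM was 1396 and 1209. The keratin KRT18 was the highest of them (412.7 and 362.3 FPKM), and their log2 ratios ran from -0.45 for HOXB13 to 0.18 for FOLH1. The share of this difference in the results below was not tested. Of 6 fibroblast markers 4 were listed at 0 in both libraries and COL1A1 held nearly all of the summed 4.54 and 4.83 FPKM. The 6 leukocyte markers summed to 7.22 and 6.39 FPKM, most of it CD68, with CD3E listed at 0 in both. The 4 endothelial markers summed to 0.401 and 0.658 FPKM and the 4 neuroendocrine markers to 0.779 and 0.788 FPKM.

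The promoter bases of 4 of these genes are shown first, because they set an inducible cyclooxygenase and an inducible synthase, both low here, beside a synthase and a reductase that stood at high levels. Each sequence is the 250 bases before the outermost RefSeq transcript start (GRCh38.p14, 5′ to 3′ on the gene's strand). The deposited values name the builds GRCh37 and hg19, so the coordinates belong to the sequences only. Capitals mark matches, on either strand, to 7 motifs. The TATA box was searched as TATAAA. The GC box, bound by SP1 and related factors, was searched as GGGCGG. The motif of EGR1, a zinc finger factor, was GCGTGGGCG. The motif of the C/EBP factors was TTNNGCAA. The half-site of the cyclic AMP response element, or CRE, was TGACG. The motif of NF-kB was GGANTNNCC. The antioxidant response element was searched as TGACNNNGC.

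PTGS2, chr1:186680424-186680673, minus strand: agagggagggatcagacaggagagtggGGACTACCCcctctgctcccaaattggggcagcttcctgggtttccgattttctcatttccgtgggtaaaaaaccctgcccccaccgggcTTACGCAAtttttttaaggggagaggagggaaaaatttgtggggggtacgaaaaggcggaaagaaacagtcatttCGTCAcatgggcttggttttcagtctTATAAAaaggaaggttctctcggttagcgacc
PTGES, chr9:129753043-129753292, minus strand: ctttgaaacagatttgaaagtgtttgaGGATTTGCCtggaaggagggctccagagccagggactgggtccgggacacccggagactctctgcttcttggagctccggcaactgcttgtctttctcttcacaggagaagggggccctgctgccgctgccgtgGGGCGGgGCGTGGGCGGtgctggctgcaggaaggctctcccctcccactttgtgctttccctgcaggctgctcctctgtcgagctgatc
PTGES2, chr9:128128441-128128690, minus strand: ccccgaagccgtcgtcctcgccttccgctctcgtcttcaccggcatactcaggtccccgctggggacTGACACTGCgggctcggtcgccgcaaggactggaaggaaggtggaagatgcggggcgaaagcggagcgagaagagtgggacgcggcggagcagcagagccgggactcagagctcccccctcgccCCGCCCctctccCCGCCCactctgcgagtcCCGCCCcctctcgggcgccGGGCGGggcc
CBR1, chr21:36069774-36070023, plus strand: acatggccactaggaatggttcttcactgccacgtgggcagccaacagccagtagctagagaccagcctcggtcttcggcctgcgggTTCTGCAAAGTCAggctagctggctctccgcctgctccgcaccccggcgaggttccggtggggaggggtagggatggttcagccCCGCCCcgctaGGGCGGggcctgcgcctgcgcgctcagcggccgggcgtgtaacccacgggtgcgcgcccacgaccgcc

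The PTGS2 window held a TATA box that begins 32 bases before the start. It also held a CRE half-site at 58 bases, a C/EBP motif at 133 bases and an NF-kB motif at 223 bases. The PTGES window held no TATA box match and 2 GC boxes, at 89 and 78 bases, with an EGR1 motif at 82 bases that overlaps the second of them, and an NF-kB motif at 223 bases. The PTGES2 window had 4 GC boxes within 59 bases of the start and 1 antioxidant response element, and the window of a second PTGES2 start held an EGR1 motif. In the CBR1 window there were 2 GC boxes and an antioxidant response element at 159 bases that overlaps a C/EBP motif at 163 bases. GC content was 50.4% for PTGS2, 61.2% for PTGES, 72.4% for PTGES2 and 69.6% for CBR1, against a median of 58.0% over 35091 such windows. Among these windows 10.7% held the TATA box and 42.6% the GC box. The EGR1 motif was in 0.72%, the C/EBP motif in 9.05%, the CRE half-site in 21.2%, the NF-kB motif in 11.99% and the antioxidant response element in 10.9%. The 4 genes were picked partly by level, and the other genes with a window were mixed in GC content. PTGER4, which was low, had 72.8% and 4 GC boxes. PTGS1 and HPGD, also low, had 49.6% and 42.0% at the outermost start, and 65.2% and 70.8% at another. PTGR2, at a higher level, had 55.6% at the outermost start and 65.2% at another. PTGR1, also higher, had 59.6% and no match to any of the motifs. A relation to level was not tested. The motifs were chosen with the PTGS2 and PTGES sequences in view, and a match is a description of letters, not evidence that a factor binds there.

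**Figure D1:**
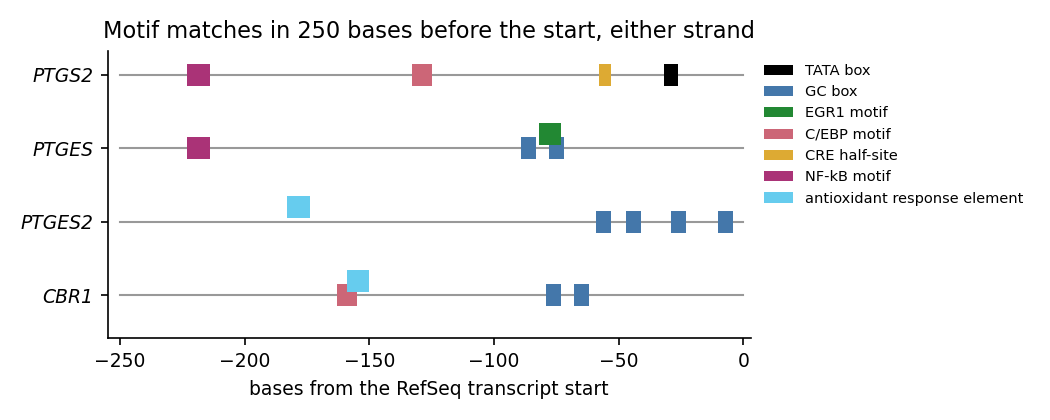
Positions of the motif matches in the 250 bases before the transcript start of 4 genes, in bases from the start. Overlapping matches are drawn one above the other. The TATA box lies in PTGS2 alone of these 4, and the EGR1 motif in PTGES alone.

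Both cyclooxygenase genes stood far below the levels of PTGES2, CBR1, PTGR1 and PTGR2. HPGD was also low, and below PTGS1 in both libraries. PTGS1 was at 0.252 FPKM with DMSO and 0.202 FPKM with Indocin, estimated at about 41 and 33 fragments. PTGS2 was at 0.0608 and 0.0156 FPKM, estimated at about 9 and 2 fragments. Of the 23201 symbols that are not short RNA genes, 40.3% had a lower mean than PTGS1 and 31.2% a lower mean than PTGS2, and a large part of those were listed at 0. The log2 ratio of Indocin to DMSO, computed on FPKM + 1, was -0.06 for both genes.

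The order of the PTGS2 values rests on a few fragments. Among 2619 genes with a mean of 0.01 to 0.1 FPKM, 29.1% were at least 1.5-fold lower with Indocin in FPKM alone and 44.3% at least 1.5-fold higher. PTGS2 was 3.89-fold lower in FPKM alone, and 15.3% of these genes were lower by at least as many fold or were listed at 0 with Indocin. PTGS1 was 1.24-fold lower in FPKM alone, a ratio within 1% of 5 fragments to 4, which larger whole numbers also give.

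**Figure D2:**
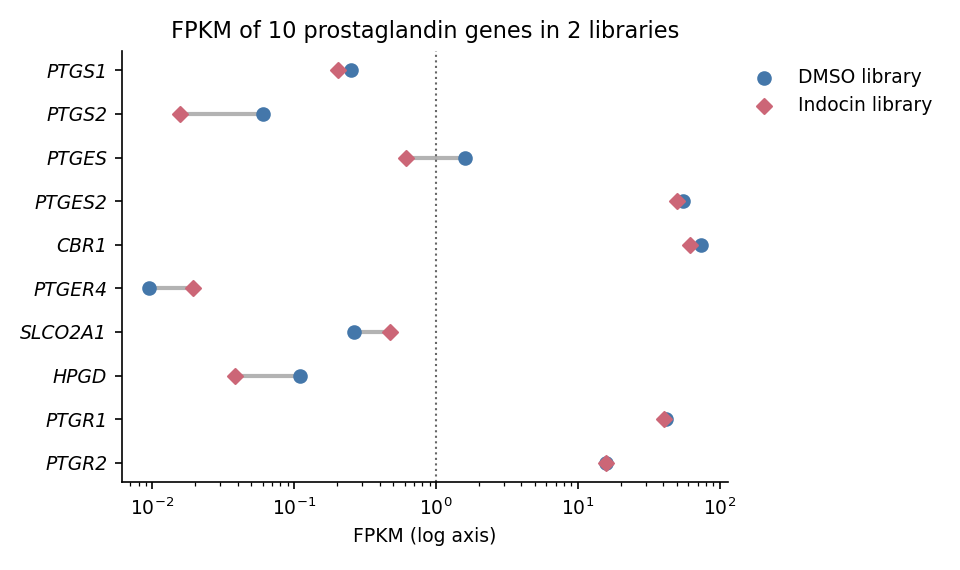
FPKM of the 10 genes on a log axis, with a circle for the DMSO library and a diamond for the Indocin library. The dotted line marks 1 FPKM. PTGES2, CBR1, PTGR1 and PTGR2 lie between 15.7 and 73.3 FPKM in both libraries, and PTGES is the 1 gene whose values lie on opposite sides of the line.

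The synthases of prostaglandin E2 differed in level and in their difference between the libraries. PTGES, the microsomal synthase that is typically induced together with PTGS2, stood at 1.60 FPKM with DMSO and 0.617 FPKM with Indocin, about 92 and 35 fragments. It was 2.59-fold lower in FPKM alone, and its log2 ratio was -0.68. Its mean of 1.11 FPKM passed the minimum of 1 FPKM only through the DMSO library. PTGES2, a membrane-associated synthase that is usually constitutive, stood at 55.0 and 49.9 FPKM, with a log2 ratio of -0.14. PTGES3, the cytosolic synthase that is also the HSP90 co-chaperone p23, was at 391.7 and 333.7 FPKM (-0.23). PTGES2 was therefore 34.4 times as high as PTGES with DMSO and 80.9 times with Indocin. PTGES made up 0.357% of the summed FPKM of these 3 genes with DMSO and 0.161% with Indocin.

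PTGES was the 1 gene of the 5 tested that was at least 1.5-fold lower on the log2(FPKM + 1) scale. Since it entered the tested genes through the library in which it was high, this count is a description and nothing is read from it. None of the 5 was as much higher. Among all tested genes, 0.744% were at least 1.5-fold lower and 2.2% at least 1.5-fold higher. Among the 3023 with a mean of 1 to 5 FPKM, the shares were 0.728% and 3.14%, and 0.662% were at least 2-fold lower in FPKM alone. With a pseudocount of 5 FPKM the log2 ratio of PTGES was -0.23, short of 1.5-fold, and with 0.1 FPKM it was -1.24. The median log2 ratio of the 5 genes was -0.14, against -0.03 for all tested genes. This median includes PTGES, so nothing is read from it either. With a minimum mean of 5 FPKM, which leaves PTGES out, the 2 medians were -0.09 and -0.04.

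**Figure D3:**
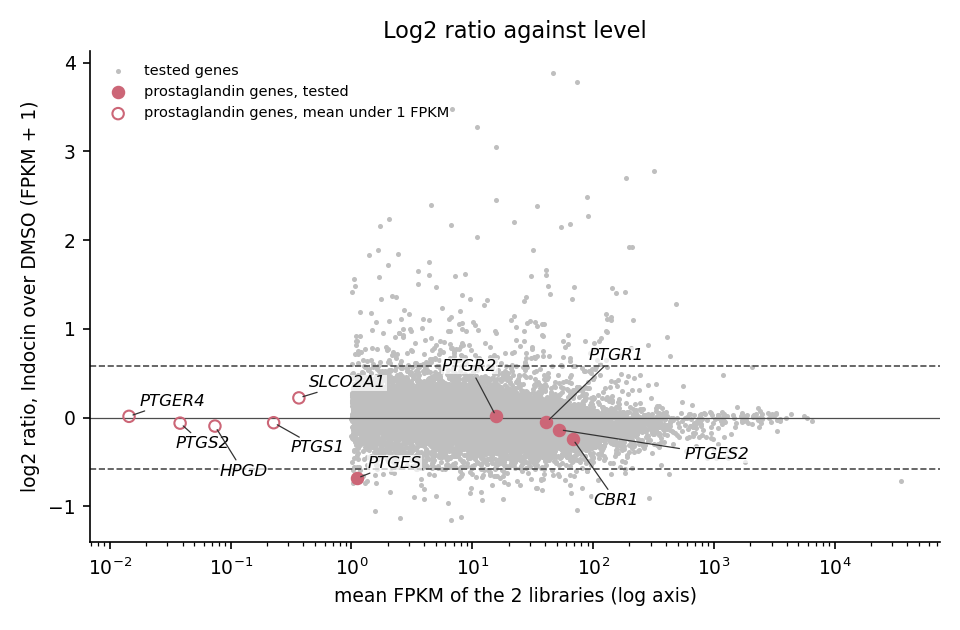
Log2 ratio of Indocin to DMSO on FPKM + 1 against the mean FPKM of the 2 libraries. Grey points are the 11960 tested genes, filled circles the 5 prostaglandin genes that reached the minimum mean and open circles the other 5, and dashed lines mark 1.5-fold. PTGES lies beyond the lower dashed line, close to the minimum mean.

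CBR1 was the highest of the 10 genes. It stood at 73.3 FPKM with DMSO and 62.0 FPKM with Indocin, 1.18-fold lower (log2 ratio -0.24). Its paralog CBR3, which lies near it on chromosome 21 and reduces carbonyl compounds, was at 16.9 and 11.9 FPKM (-0.48), so CBR1 was 4.33 times as high as CBR3 with DMSO and 5.21 times with Indocin. Neither reached 1.5-fold. How far reads could be shared between these related genes was not tested.

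The receptor and the uptake transporter were both low. PTGER4 was at 0.00955 FPKM with DMSO and 0.0193 FPKM with Indocin. Divided by the 1.014-fold difference in the worth of 1 fragment, the ratio was within 1% of 1 fragment to 2. The length-based estimate was also about 1 and 2 fragments. No direction can be read from such numbers. SLCO2A1 stood at 0.263 and 0.472 FPKM, about 75 and 133 fragments, 1.80-fold higher in FPKM alone, with a log2 ratio of 0.22 on FPKM + 1. Among 2813 genes with a mean of 0.1 to 1 FPKM, 26.5% were at least 1.5-fold higher in FPKM alone and 13.1% at least 1.5-fold lower. Higher by at least as many fold as SLCO2A1, or listed at 0 with DMSO, were 16.2% of these genes.

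The inactivating enzymes fell into a low first step and a well expressed second step. HPGD, which oxidises the 15-hydroxyl group of prostaglandins, was at 0.110 FPKM with DMSO and 0.0385 FPKM with Indocin, about 11 and 4 fragments. It was 2.85-fold lower in FPKM alone, and its log2 ratio was -0.10. Of the 2619 genes with a mean of 0.01 to 0.1 FPKM, 18.6% were lower by at least as many fold or were listed at 0 with Indocin. PTGR1, which reduces 15-keto prostaglandins and also oxidises leukotriene B4, was at 41.8 and 40.3 FPKM (-0.05). PTGR2, a reductase of 15-keto prostaglandin E2 that has been crystallised with indomethacin bound, was at 15.7 and 15.8 FPKM (0.01). Both reductases lay inside the quartiles of all tested genes, -0.15 and 0.11. The sign for PTGR1 changed when the libraries were brought to a common upper quartile (0.02) or a common sum (0.03). Exons of PTGR2 overlap those of ZNF410 on the same strand by 211 bases in the GRCh38 annotation, and ZNF410 was at 23.7 and 27.2 FPKM.

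**Figure D4:**
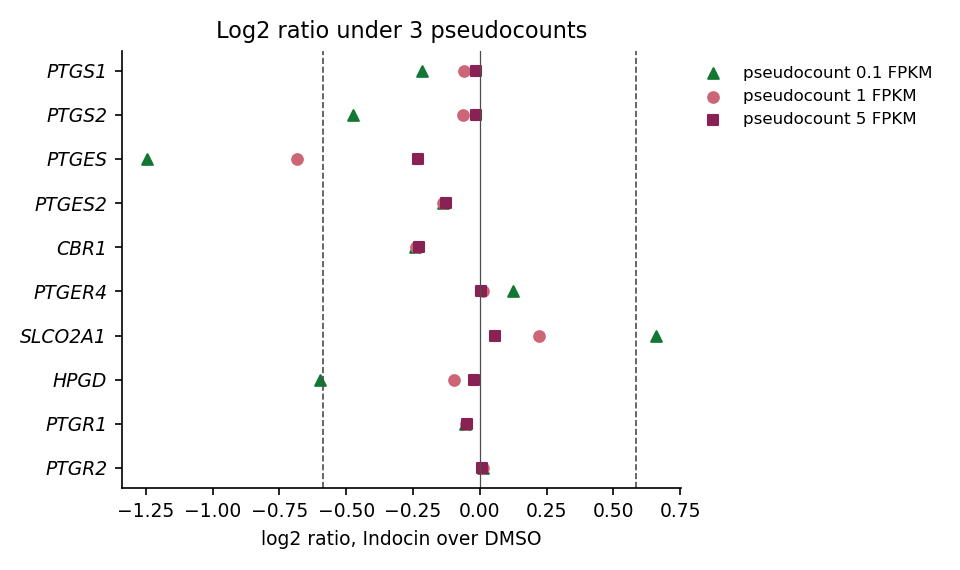
Log2 ratio of Indocin to DMSO for the 10 genes with pseudocounts of 0.1, 1 and 5 FPKM, with dashed lines at 1.5-fold. PTGES2, CBR1, PTGR1 and PTGR2 hardly move, while PTGES ranges from -1.24 to -0.23 and SLCO2A1 from 0.66 to 0.06.

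The other genes of the pathway were taken from 7 lists written from general knowledge: 73 symbols in the tables besides the 10, of which 36 reached the minimum mean. At 1.5-fold 1 was higher and 1 lower, with 19 ratios above 0 and 17 below and a median of 0.01. Each count is 2.78% of the 36, beside 2.2% higher and 0.744% lower among all tested genes, and a count of 1 gives no comparison of these shares. The lists are described in turn, each with its measured genes.

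Most other prostanoid synthase genes, and all other prostanoid receptors, were under the minimum mean. Of 9 other synthase genes 4 were measured, and 3 (PTGDS and HPGDS, which make prostaglandin D2, and the prostacyclin synthase PTGIS) were listed at 0 in both libraries. The highest was PTGES3, the lowest ratio was that of CBR3, and the highest that of AKR1C3, a prostaglandin F and androgen synthase (1.27 and 1.55 FPKM, 0.17). Also measured in this list was FAM213B, at 29.8 FPKM with DMSO and 24.4 FPKM with Indocin (-0.27). The thromboxane synthase TBXAS1 stood under the minimum at 0.65 and 1.13 FPKM. None of 8 other prostanoid receptors reached a mean of 1 FPKM, 4 of them (PTGER2, PTGDR, PTGFR and PTGIR) were listed at 0 in both libraries, and all 8 summed to 1.52 FPKM with DMSO and 1.04 FPKM with Indocin. The thromboxane receptor TBXA2R, at 0.846 and 0.483 FPKM, and the prostaglandin D2 receptor PTGDR2, at 0.653 and 0.449 FPKM, made up most of that sum.

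The exporter ABCC4 stood far above the uptake transporter SLCO2A1. ABCC4, an efflux pump that exports prostaglandin E2, was at 48.8 FPKM with DMSO and 49.3 FPKM with Indocin (0.02), and SLCO4A1, an organic anion transporter, was at 23.0 and 15.4 FPKM (-0.55), which did not reach 1.5-fold. The reductase ZADH2 was at 7.95 and 8.07 FPKM (0.02). Of these 6 genes 4 were measured and none was past 1.5-fold.

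The measured pathway genes past 1.5-fold on FPKM + 1 were a desaturase and an elongase of polyunsaturated fatty acids, FADS2 and ELOVL2. None of 9 measured genes of arachidonate release was past 1.5-fold. Their ratios ran from -0.22 for the secreted phospholipase PLA2G2A (3.41 and 2.79 FPKM) to 0.36 for PLA2G6 (5.00 and 6.68 FPKM), and the amide hydrolase FAAH was the highest in level (36.3 and 36.5 FPKM). The cytosolic phospholipase PLA2G4A, the main source of arachidonate for cyclooxygenases in many cells, was at 0.0367 and 0.0188 FPKM. The next list held 8 measured desaturases, elongases, acyl-CoA synthetases and acyltransferases that act on arachidonate or other polyunsaturated fatty acids. FADS2, the delta-6 desaturase early in arachidonate synthesis, was at 331.5 and 535.3 FPKM (0.69), at least 1.5-fold higher. ELOVL2, which elongates arachidonate and other long polyunsaturated fatty acids, was at 2.95 and 1.57 FPKM (-0.62), at least 1.5-fold lower as deposited. It fell short of 1.5-fold with a common upper quartile (-0.57), a common sum (-0.57) or a pseudocount of 5 FPKM (-0.28). FADS1, the delta-5 desaturase that forms arachidonate, was at 54.1 and 76.0 FPKM (0.48).

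The other branches of arachidonate metabolism had no measured gene past 1.5-fold on FPKM + 1 without rescaling. ALOX15, a 15-lipoxygenase, was the highest of 5 measured lipoxygenase and leukotriene genes, at 58.2 FPKM with DMSO and 57.9 FPKM with Indocin (-0.01). ALOX5 was at 0.106 and 0.202 FPKM, and the ratios of the 5 ran from -0.11 (ALOXE3) to 0.11 (LTB4R). Among 6 measured cytochrome P450 and epoxide hydrolase genes the median was 0.22, from -0.23 for CYP2U1 to 0.53 for CYP4F11 (1.49 and 2.61 FPKM), and the epoxide hydrolase EPHX1 was the highest in level (276.9 and 322.3 FPKM, 0.22). CYP4F11 was 1.75-fold higher in FPKM alone. It also passed 1.5-fold with a pseudocount of 0.1 FPKM (0.77) and with a common sum (0.59).

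**Figure D5:**
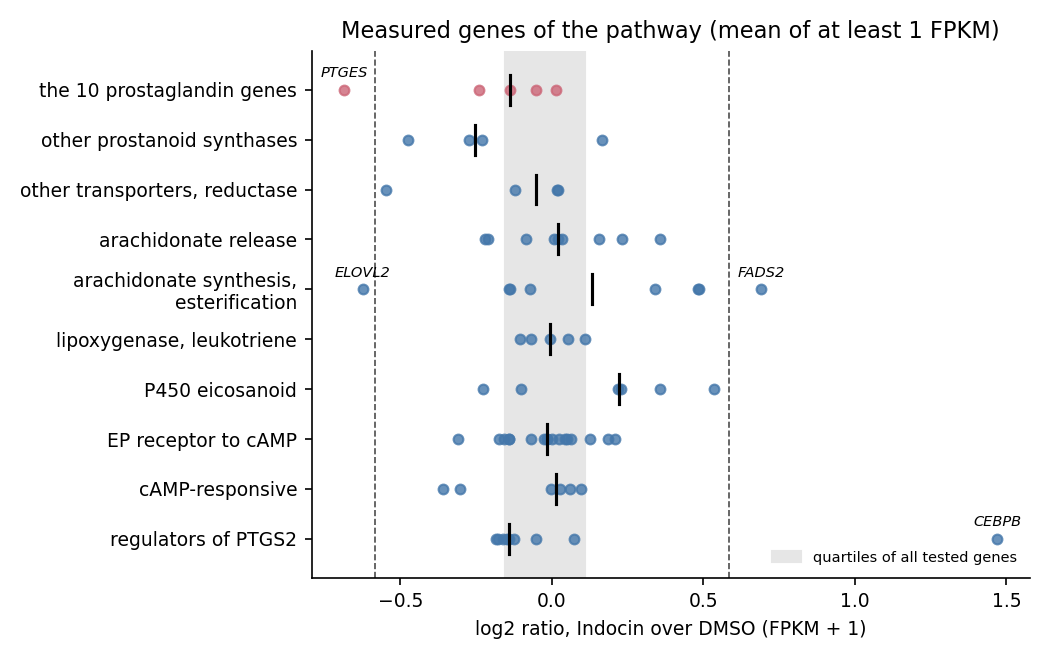
Log2 ratios of measured genes by list, on FPKM + 1. Points are genes, black bars are list medians, dashed lines mark 1.5-fold and the grey band spans the quartiles of all tested genes. PTGES, ELOVL2, FADS2 and CEBPB are the 4 points past a dashed line.

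No measured gene of the 2 lists downstream of the EP receptors was past 1.5-fold. All 17 genes from the Gs protein to CREB were measured, none was past 1.5-fold, and the median was -0.02. The Gs subunit GNAS was the highest (462.3 and 454.4 FPKM, -0.02), and ratios ran from -0.31 for the arrestin ARRB1 to 0.21 for ATF1. Of 14 genes known to respond to cyclic AMP 6 were measured and none was past 1.5-fold, with a median of 0.01. The clock gene PER1 was the highest in level and the lowest in ratio (24.0 and 18.5 FPKM, -0.36), and the phosphodiesterase PDE4D had the highest ratio (0.98 and 1.12 FPKM, 0.10). ARRB1, ATF1 and PER1 were among the genes outside the quartiles of all tested genes, -0.15 and 0.11. The other 8 genes known to respond to cyclic AMP were under the minimum mean and are not covered by these statements.

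Of 9 measured regulators of PTGS2 transcription or messenger stability, CEBPB, the C/EBP factor that binds the PTGS2 promoter in other cells, was at least 1.5-fold higher, at 36.4 FPKM with DMSO and 102.7 FPKM with Indocin (1.47). The other 8 lay between -0.18 (NFKBIA, the NF-kB inhibitor, at 101.3 and 89.0 FPKM) and 0.07 (TIA1). A count of 1 in 9 gives no comparison with the 2.2% that were higher among all tested genes. PTGS2 itself was at 0.0608 and 0.0156 FPKM. EGR1, a factor known to act on the PTGES promoter, whose motif is in capitals above, was under the minimum at 0.598 and 0.312 FPKM, beside 1.60 and 0.617 FPKM for PTGES. Of the 2813 genes with a mean of 0.1 to 1 FPKM, where EGR1 lies, 13.1% were at least 1.5-fold lower in FPKM alone. A C/EBP motif also lay in the CBR1 window (CBR1 log2 ratio -0.24). An EGR1 motif also lay in the window of a second PTGES2 start (PTGES2 log2 ratio -0.14). Whether the values of these factors and genes are related was not tested.

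Proteins other than the cyclooxygenases that bind indomethacin were covered by 8 symbols, of which 5 were measured and none of these 5 was past 1.5-fold. With 2.2% higher and 0.744% lower among all tested genes, nothing is read from having none among 5. PPARG, a nuclear receptor that indomethacin activates, was at 3.82 FPKM with DMSO and 5.67 FPKM with Indocin (0.47). The efflux pump ABCC1 was the highest in level, at 55.1 and 54.4 FPKM (-0.02), and the lowest ratio of the 5 was that of PTGR1. AKR1C1 and AKR1C2, close paralogs of AKR1C3 that can share reads with it, were under the minimum mean and so were not counted. AKR1C1 was at 0.291 FPKM with DMSO and 1.33 FPKM with Indocin, 4.58-fold higher in FPKM alone. Its log2 ratio of 0.85 on FPKM + 1 was past 1.5-fold and the highest of the 8 symbols. Its longest coding transcript, of 6705 bases against 1807 for AKR1C3, gives about 63 and 286 fragments. A shorter transcript would give fewer. Divided by the 1.014-fold difference in the worth of 1 fragment, the ratio is within 1% of 2 fragments to 9, which larger whole numbers also give. AKR1C2 was at 0.315 and 0.735 FPKM, about 38 and 88 fragments, 2.34-fold higher in FPKM alone (0.40). Among the 2813 genes with a mean of 0.1 to 1 FPKM, 26.5% were at least 1.5-fold higher in FPKM alone and 13.1% at least 1.5-fold lower. At the 1.80-fold of SLCO2A1 or more, or listed at 0 with DMSO, the share was 16.2%. Shares at the larger folds of AKR1C1 and AKR1C2 were not computed.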

How the data were processed

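Per the labels' protocols, total RNA was isolated with TRIzol and strand-specific mRNA libraries were made with the KAPA Stranded mRNA-Seq kit, 1 from each group. The deposited values are FPKM per gene symbol, made by the authors, per the file headers. Named in the submitters' processing notes are the builds GRCh37 and hg19 and the tools Cuffnorm, StringTie, Cufflinks, TopHat and bcl2fastq. What each tool did, its version, the annotation used and whether counting used strand were not given in the sources used here.

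For each gene 1 FPKM was added to both values, and the log2 ratio of Indocin to DMSO was computed in Python 3.11.15 with pandas 2.3.3. Genes were tested with a mean of at least 1 FPKM, leaving out 2067 symbols of short RNA genes, and counted at 1.5-fold; 11960 were tested. FPKM are not counts, so no count test was run. The named genes were all 10 prostaglandin genes and, from each list, those past 1.5-fold and those with the highest and lowest ratio and the highest level; other genes were named after their values were seen. The members and lists were chosen with earlier results of these data known. Fragment estimates, motif matches and shares below 1 FPKM were added after seeing the data. A marker gene of the luminal list is not reported here. A value of 0 is read as listed at 0. The calculation was tested on simulated data. Of the 10 symbols, 9 matched a RefSeq promoter window. Other settings tried were a pseudocount of 0.1 or 5 FPKM, a minimum mean of 5 FPKM or none, centring on the median, a common upper quartile or sum for both libraries, short RNA genes kept and a 2-fold threshold.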

Additional observations from a re-analysis of the deposited data

How the results depend on the processing

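No paired analysis was possible because each group had 1 library. Of the 10 genes, 7 had ratios below 0 and 3 above; with a common upper quartile or a common sum, 6 were below and 4 above. On FPKM + 1 without rescaling, PTGES was the 1 measured gene of the 10 that was at least 1.5-fold lower. The number was 0 with a pseudocount of 5 FPKM, a mean of at least 5 FPKM (which leaves PTGES out) or a 2-fold threshold. The log2 ratio of PTGES was -0.66 centred, -0.65 with a common upper quartile and -0.64 with a common sum. The median of the tested prostaglandin genes ran from -0.14 to -0.06 over the alternatives. That of all tested genes moved as well. The 2 medians were -0.06 and 0.04 with a common upper quartile, and -0.06 and 0.05 with a common sum. Of the other pathway genes, the 1 that was higher became 2 (with CYP4F11) with a pseudocount of 0.1 FPKM or a common sum, and 0 at 2-fold. The 1 that was lower became 0 with a pseudocount of 5 FPKM, a mean of at least 5 FPKM, a common upper quartile, a common sum or 2-fold. Over all tested genes, 263 were higher and 89 lower (74.7% higher). These were 421 and 188 with a pseudocount of 0.1 FPKM, 127 and 36 with 5 FPKM, 168 and 67 with a mean of at least 5 FPKM, and 91 and 5 at 2-fold (94.8% higher). The split was 322 and 58 with a common upper quartile (84.7% higher) and 324 and 52 with a common sum (86.2% higher). The causes of these moves were not tested. Without replicates, fragment number limits PTGS2, HPGD and PTGER4 most. PTGS1 and PTGES follow, at about 33 and 35 fragments with Indocin.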
